A study of Homo sapiens with 9 samples.

Results

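The spindle assembly checkpoint is the surveillance system that holds a dividing cell in mitosis until every chromosome is attached to the spindle, and 10 of its genes were followed here in HUCCT-1 cells, a human line of intrahepatic cholangiocarcinoma, a cancer of bile duct epithelium. The 10 genes, BUB1, BUB1B, BUB3, TTK, MAD1L1, MAD2L1, MAD2L1BP, TRIP13, SGO1 and SGO2, were taken by name for the role of their proteins, with earlier results of these data known, and each has 1 probe set among the 37201 genes tested. The study asked whether YAP and TAZ, the transcriptional co-activators at the end of the Hippo pathway, support genes of cell division and chromosomal instability in bile duct cancer. RNA was taken 24 h after transfection and hybridised to 9 arrays. There were 3 arrays of YAP/TAZ siRNA combination 2 (YAP siRNA 2 with TAZ siRNA 3), 3 of combination 1 (YAP siRNA 1 with TAZ siRNA 2) and 3 of scrambled siRNA, and all cells carried siRNA at a total of 40 nM. All 9 arrays come from the same cell line, and neither combination silences YAP or TAZ alone. The study's methods list TAZ siRNAs 1 and 2, so the identity of TAZ siRNA 3 is unknown here. Whether the 3 arrays of a group were separate cultures is not given in the labels, and the p-values therefore refer to the spread between these arrays alone, which may be technical. Standard errors (SE) are those of limma. Each value is a log2 signal, on which a difference of 1 is a doubling of the measured signal.

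The checkpoint works through a relay at the kinetochore, the protein structure by which a chromosome holds the spindle. The kinase TTK, also called MPS1, marks unattached kinetochores, BUB3 and BUB1 dock on the marks, and MAD1L1 and MAD2L1 follow. MAD2L1 then joins BUB1B (BUBR1) and BUB3 on CDC20, which keeps the anaphase-promoting complex from releasing the chromosomes. TRIP13, an ATPase, and its adaptor MAD2L1BP (p31comet) take that inhibitor apart again, and the shugoshins SGO1 and SGO2 guard the cohesion of sister centromeres. Most of these genes are read in late S phase, G2 and mitosis, so their RNA is known to follow the share of dividing cells in a culture. In RNA of whole cultures, fewer cells in G2 or mitosis and less RNA per cell cannot be told apart.

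Late cell cycle genes are known for a short element near the transcription start, the cell cycle homology region, which binds the MuvB complex and through it B-MYB (MYBL2) and FOXM1. RefSeq start regions (GRCh38.p14) were found for 8 of the 10 genes, all but BUB3 and TTK. In each window of 250 bases before to 50 bases after the start, both strands were searched for TTTGAA and TTCGAA, the forms of the homology region, CCAAT, the box of NF-Y, GGAATG, the core site of the TEAD factors that carry YAP and TAZ to DNA, and TTTGGCGC, TTTCGCGC and TTTCCCGC, forms of the E2F site. TTCGAA reads the same on both strands. Of the 7 start regions below, 5 hold a form of the homology region within 30 bases of the start, a distance chosen after the matches were seen. The others, SGO2 and MAD1L1, hold none in their whole windows. SGO2 RNA was lower with combination 1 without overlap and MAD1L1 RNA was not. MAD2L1BP RNA, which was not lower without overlap either, belongs to a gene with a match farther from the start, not printed here. Whether a match goes with the RNA difference was not tested. Each printed region runs from 80 bases before to 30 bases after the start. Capitals mark the homology region and CCAAT boxes (ATTGG where the box lies on the other strand).
BUB1 (chr2:110678034-110678143, minus strand): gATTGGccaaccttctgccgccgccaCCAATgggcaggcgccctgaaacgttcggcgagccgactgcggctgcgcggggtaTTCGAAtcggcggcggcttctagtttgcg
SGO1 (chr3:20186177-20186286, minus strand): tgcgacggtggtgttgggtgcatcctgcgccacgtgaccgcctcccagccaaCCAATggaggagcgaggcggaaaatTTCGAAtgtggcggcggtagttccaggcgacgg
TRIP13 (chr5:892804-892913, plus strand): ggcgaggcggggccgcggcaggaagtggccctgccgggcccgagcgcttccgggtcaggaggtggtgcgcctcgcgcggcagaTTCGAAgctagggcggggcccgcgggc
MAD2L1 (chr4:120066819-120066928, minus strand): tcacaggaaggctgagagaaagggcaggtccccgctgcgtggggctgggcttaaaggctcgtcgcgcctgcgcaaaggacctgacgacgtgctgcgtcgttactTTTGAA
BUB1B (chr15:40160989-40161098, plus strand): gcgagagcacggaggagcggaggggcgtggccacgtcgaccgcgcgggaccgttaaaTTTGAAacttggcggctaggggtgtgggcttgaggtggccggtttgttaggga
SGO2 (chr2:200526062-200526171, plus strand): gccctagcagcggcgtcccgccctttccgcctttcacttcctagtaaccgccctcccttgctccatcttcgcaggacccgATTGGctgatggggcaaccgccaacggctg
MAD1L1 (chr7:2232916-2233025, minus strand): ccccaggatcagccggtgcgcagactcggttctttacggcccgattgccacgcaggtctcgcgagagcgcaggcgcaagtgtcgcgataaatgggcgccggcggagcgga

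Counting the first transcribed base as 1 and the base before it as −1, TTCGAA lay at 2 to 7 in BUB1, at −3 to 3 in SGO1 and at 4 to 9 in TRIP13. TTTGAA lay at 25 to 30 in MAD2L1 and at −23 to −18 in BUB1B. The rarer form, TTCGAA, was in 3 of the 8 genes, in 3 of their 10 windows. Its share was 1.45% over all 35093 windows and 1.54% over windows of protein-coding genes. Either form anywhere in the window was in 6 of the 8 genes, in 6 of their 10 windows. The share was 16.4% over all windows and 13.7% over windows of protein-coding genes. The remaining gene with a match, MAD2L1BP, had TTTGAA on the minus strand at −117 to −112 of its second start. Within 30 bases of the start, a distance chosen after the matches were seen, either form was in 5 of the 8 genes. The MAD2L1 match ends exactly at that distance, so the count depends on the choice. The share at that distance was 3.01% over all windows and 2.39% over windows of protein-coding genes. SGO2 has 2 RefSeq starts, of which the first is shown. CCAAT boxes were in BUB1, SGO1, MAD2L1 and SGO2 and in 34.6% of all windows. GGAATG, found in 14.0% of all windows, and the E2F forms, found in 0.653%, 0.516% and 1.63%, were in none of the 8 genes. These absences from 10 windows were not tested, and sites outside the windows were not searched. A match of letters is a description of the window and not a measured binding site.

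The median log2 signal was 5.81 on each array, and both siRNA targets were lower on every silenced array than on every scrambled array. YAP1 was at a log2 signal of 6.85 ± 0.12 with combination 2, 6.88 ± 0.058 with combination 1 and 9.10 ± 0.049 with scrambled siRNA (SD, n = 3 each). WWTR1, which encodes TAZ, was at 6.97 ± 0.020 with combination 2, 7.02 ± 0.048 with combination 1 and 8.36 ± 0.055 with scrambled siRNA (SD, n = 3 each). The 7 epithelial and biliary markers averaged 9.87 to 10.11 over the arrays, above 97.8% of all genes. Averages were 5.90 to 6.08 for 5 hepatocyte markers, 5.55 to 5.69 for 5 fibroblast markers and 5.19 to 5.35 for 4 leukocyte markers. Among the hepatocyte markers SERPINA1 was high, at 9.52 with combination 2, 9.40 with combination 1 and 9.37 with scrambled siRNA as group means. Combination 2 replicate 3 differed from the rest of its group in the checkpoint genes, and the checkpoint genes are also described without it. Array weights, estimated over all genes tested, were lowest for this array (0.412), so its deviation was not confined to the checkpoint genes.

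With combination 1, every array lay below every scrambled array in 8 of the 10 checkpoint genes, all except MAD1L1 and MAD2L1BP, while 10.1% of all genes did so. BUB1, BUB1B, TTK and TRIP13 fell at an adjusted p under 0.05, 4 of 10 genes against 0.833% of all genes, and none of the 10 rose. The median difference of the 10 genes was −0.45 on the log2 scale, against 0.02 over all genes tested. Before adjustment, 8 of the 10 had a p under 0.05 from limma, and the share of all genes at that limit was not counted.

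With combination 2, BUB1 fell at an adjusted p under 0.05, 1 gene of 10 against 0.446% of all genes, and none of the 10 rose. The arrays did not overlap in 2 genes, BUB1 and BUB3, against 6.50% of all genes. The median difference was −0.22, against 0.02 over all genes tested. An unadjusted p under 0.05 from limma was found for 5 genes, again without a count over all genes. Both combinations were compared with the same 3 scrambled arrays, so their differences from scrambled siRNA are not independent of each other.

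**Figure D1:**
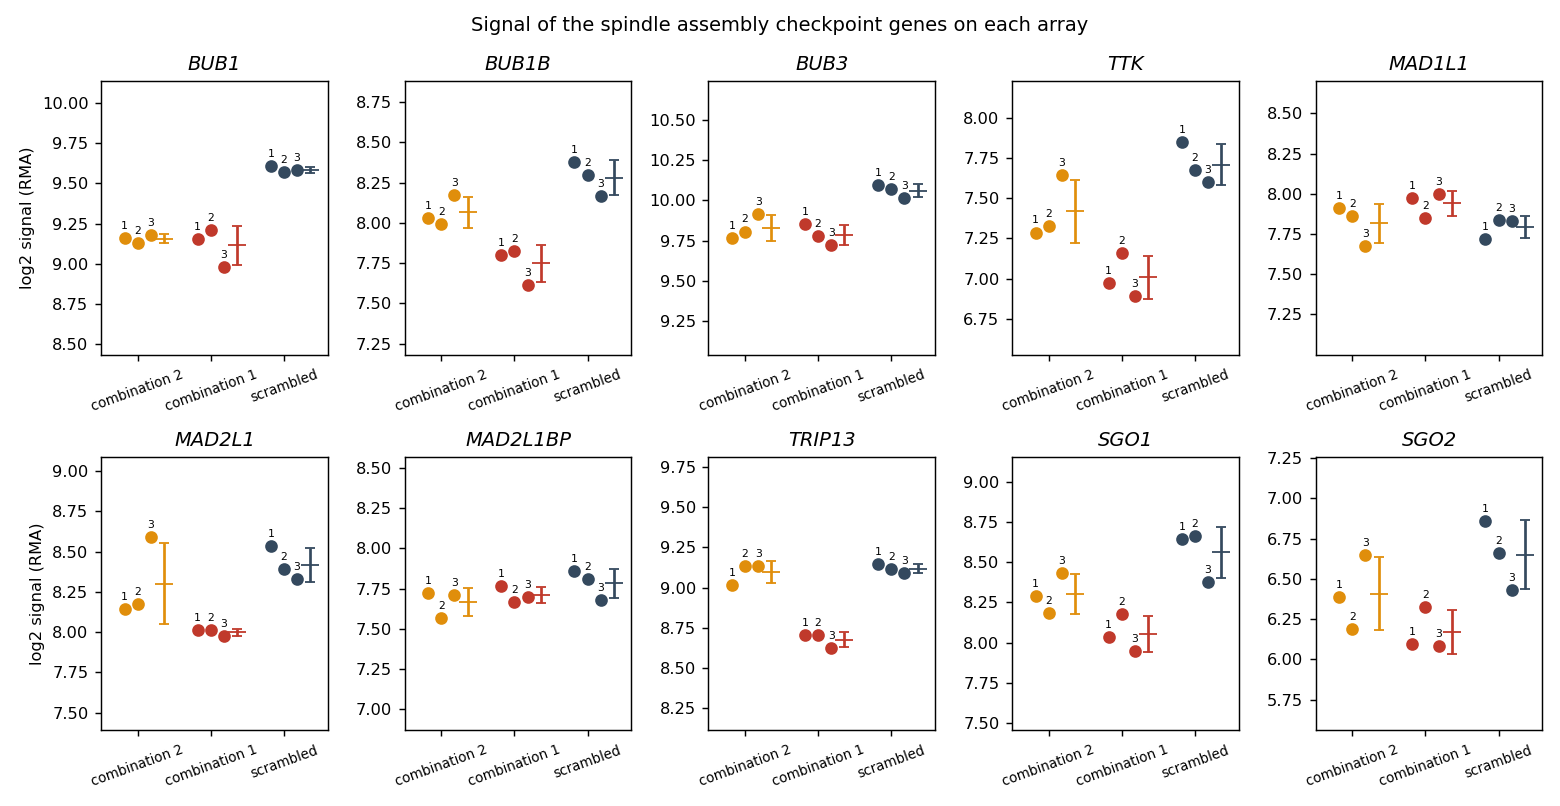
Log2 signal (vertical axis, each panel spanning 1.7 log2 units) of the 10 checkpoint genes on each array, with combination 2, combination 1 and scrambled siRNA from left to right. Points are arrays with their replicate number and the bar beside them is the mean ± SD (n = 3). BUB1 and BUB3 are low in both silenced groups, TRIP13 is low with combination 1 and near scrambled siRNA with combination 2.

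Of the kinases that start the checkpoint signal, BUB1 fell with both combinations. BUB1 (chr2:110637528-110678063) phosphorylates histone H2A at the inner centromere, the mark that SGO1 reads. Its log2 signal was 9.16, 9.13 and 9.18 on the combination 2 arrays, 9.16, 9.21 and 8.98 on the combination 1 arrays and 9.61, 9.57 and 9.58 on the scrambled arrays. The 6 silenced arrays all lay below the 3 scrambled arrays, and the silenced groups overlapped each other. The difference from scrambled siRNA was −0.43 with combination 2 (SE 0.066, limma adjusted p = 0.0299) and −0.47 with combination 1 (SE 0.066, limma adjusted p = 0.0126). In linear signal BUB1 fell by 27.7% with combination 1. The combinations differed by 0.039 (combination 2 minus combination 1, 95% interval −0.11 to 0.19, limma adjusted p = 0.895).

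The BUB1 call with combination 1 was lost without scrambled replicate 1 (limma adjusted p = 0.0659) or scrambled replicate 2 (0.0582). With combination 2 it was lost without any of 7 arrays, namely scrambled replicates 1, 2 and 3, combination 1 replicate 1 and combination 2 replicates 1, 2 and 3, with adjusted p from 0.0515 to 0.132, while the difference stayed between −0.44 and −0.42.

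TTK had the largest difference of the 10 genes with combination 1. TTK (chr6:80004649-80042527) was at 7.29, 7.32 and 7.64 on the combination 2 arrays, 6.97, 7.16 and 6.89 on the combination 1 arrays and 7.85, 7.68 and 7.60 on the scrambled arrays. The 3 combination 1 arrays were below all others, and combination 2 lay between, with replicate 3 inside the scrambled range. The difference from scrambled siRNA was −0.29 with combination 2 (SE 0.12, limma adjusted p = 0.332) and −0.70 with combination 1 (SE 0.12, limma adjusted p = 0.0252), and TTK fell by 38.5% in linear signal with combination 1. Between the combinations it differed by 0.41 (95% interval 0.15 to 0.67), which did not pass the threshold over all genes (limma adjusted p = 0.319). The call with combination 1 was lost without scrambled replicate 1 or 2 or combination 1 replicate 1 or 3, with adjusted p from 0.0923 to 0.111.

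The subunits of the mitotic checkpoint complex, the inhibitor of anaphase, were each lower with combination 1 without overlap. BUB1B (chr15:40161069-40221123), the pseudokinase that blocks the anaphase-promoting complex, was at 8.03, 7.99 and 8.17 on the combination 2 arrays, 7.80, 7.83 and 7.62 on the combination 1 arrays and 8.38, 8.30 and 8.17 on the scrambled arrays. Every combination 1 array lay below every other array, and combination 2 replicate 3 was just above scrambled replicate 3. BUB1B differed from scrambled siRNA by −0.22 with combination 2 (limma adjusted p = 0.327) and by −0.53 with combination 1 (SE 0.085, limma adjusted p = 0.0218), where it fell by 30.9% in linear signal. The combination 1 call was lost without scrambled replicate 1 or 2 or any of combination 1 replicates 1, 2 and 3, with adjusted p from 0.0524 to 0.0947.

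BUB3 (chr10:123154402-123170467), the adaptor that carries BUB1 and BUB1B to the kinetochore, was at 9.76, 9.81 and 9.92 on the combination 2 arrays, 9.85, 9.78 and 9.72 on the combination 1 arrays and 10.10, 10.07 and 10.02 on the scrambled arrays. As for BUB1, the 6 silenced arrays lay below the 3 scrambled arrays and the combinations overlapped. The difference was −0.23 with combination 2 (limma adjusted p = 0.172) and −0.28 with combination 1 (SE 0.062, limma adjusted p = 0.0809), neither past the threshold. The combinations differed by 0.044 (95% interval −0.097 to 0.19, limma adjusted p = 0.868).

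MAD2L1 (chr4:120055623-120066848) encodes MAD2, the protein that changes shape at unattached kinetochores and binds CDC20. Its signal was 8.14, 8.17 and 8.59 on the combination 2 arrays, 8.01, 8.01 and 7.97 on the combination 1 arrays and 8.54, 8.39 and 8.33 on the scrambled arrays. The combination 1 arrays lay close together below all others, whereas combination 2 replicate 3 was the highest of the 9 arrays. The difference was −0.12 with combination 2 (limma adjusted p = 0.708) and −0.42 with combination 1 (SE 0.12, limma adjusted p = 0.143). Without combination 2 replicate 3, MAD2L1 differed by −0.26 with combination 2 (limma adjusted p = 0.164) and by 0.16 between the combinations, in place of 0.30. That array also enters the shared estimate of the spread, and without it the combination 1 difference passed the threshold at the same size (limma adjusted p = 0.0227).

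MAD1L1 (chr7:1815795-2232945), which encodes the MAD1 platform that recruits MAD2, did not go with the others. It was at 7.909, 7.862 and 7.678 on the combination 2 arrays, 7.972, 7.851 and 7.999 on the combination 1 arrays and 7.716, 7.837 and 7.830 on the scrambled arrays. The combination 1 arrays all lay above the scrambled arrays, narrowly at the nearest pair, and 15.8% of all genes were higher without overlap in this comparison. The difference was 0.02 with combination 2 (limma adjusted p = 0.931) and 0.15 with combination 1 (95% interval −0.030 to 0.32, limma adjusted p = 0.398).

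Of the pair that takes the checkpoint complex apart, TRIP13 separated the combinations. TRIP13 (chr5:892884-919348) was at 9.02, 9.13 and 9.14 on the combination 2 arrays, 8.70, 8.70 and 8.63 on the combination 1 arrays and 9.15, 9.12 and 9.09 on the scrambled arrays. The combination 1 arrays lay below all 6 others, and the combination 2 and scrambled arrays overlapped. The difference from scrambled siRNA was −0.023 with combination 2 (95% interval −0.15 to 0.10, limma adjusted p = 0.895) and −0.44 with combination 1 (SE 0.056, limma adjusted p = 0.00733), where TRIP13 fell by 26.3% in linear signal. The combination 1 call held without each array in turn (adjusted p from 0.0099 to 0.0448).

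TRIP13 was also the only gene of the 10 that passed the direct test between the combinations, being higher with combination 2 than with combination 1 by 0.42 (SE 0.056, 95% interval 0.29 to 0.54, limma adjusted p = 0.0237). That is 1 gene of 10 against 0.0968% of all genes. This call was lost without each of 8 arrays, all except combination 2 replicate 1, with adjusted p from 0.0531 to 0.142, while the difference stayed between 0.39 and 0.46. Its partner MAD2L1BP (chr6:43629540-43640941) was at 7.72, 7.57 and 7.71 with combination 2, 7.76, 7.67 and 7.70 with combination 1 and 7.86, 7.81 and 7.68 with scrambled siRNA, and the 3 groups overlapped. MAD2L1BP differed by −0.12 with combination 2 (limma adjusted p = 0.516) and −0.072 with combination 1 (limma adjusted p = 0.644).

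The shugoshins were lower with combination 1 without overlap and did not pass the threshold. SGO1 (chr3:20160593-20186886), which shields centromeric cohesin in mitosis, was at 8.29, 8.18 and 8.43 on the combination 2 arrays, 8.03, 8.18 and 7.95 on the combination 1 arrays and 8.64, 8.66 and 8.38 on the scrambled arrays. The difference was −0.26 with combination 2 (limma adjusted p = 0.327) and −0.51 with combination 1 (SE 0.10, limma adjusted p = 0.0554). SGO2 (chr2:200526142-200584096), known in mice for guarding cohesin in meiosis, was at 6.39, 6.19 and 6.65 with combination 2, 6.09, 6.33 and 6.09 with combination 1 and 6.86, 6.66 and 6.43 with scrambled siRNA. Both genes had combination 2 arrays inside the scrambled range. The SGO2 difference was −0.24 with combination 2 (limma adjusted p = 0.509) and −0.48 with combination 1 (SE 0.14, limma adjusted p = 0.166).

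**Figure D2:**
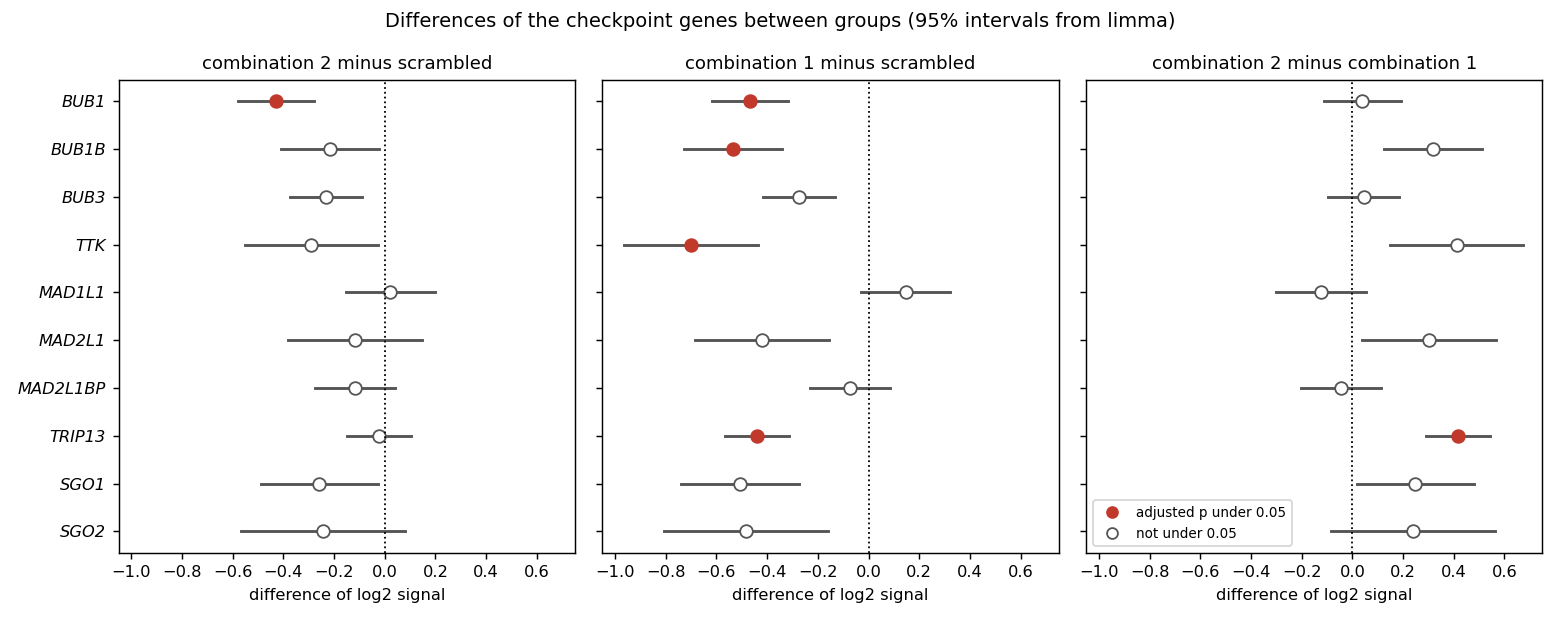
Differences of log2 signal (horizontal axis) for each checkpoint gene, with 95% intervals from limma, as combination 2 minus scrambled, combination 1 minus scrambled and combination 2 minus combination 1. Filled points have an adjusted p under 0.05. BUB1 is filled in both comparisons with scrambled siRNA, and TRIP13 alone is filled between the combinations, at 0.42.

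Set directly against combination 1, combination 2 was higher without overlap in 5 of the 10 genes, BUB1B, TTK, MAD2L1, TRIP13 and SGO1, against 8.59% of all genes. The median difference of the 10 genes was 0.24, against −0.0023 over all genes tested. Of these 5 genes, TRIP13 passed the threshold, and the other 4 differed by 0.25 to 0.41 with adjusted p from 0.290 to 0.527 from limma. For BUB1, BUB3, MAD1L1, MAD2L1BP and SGO2 the 95% interval of the difference between the combinations included 0.

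As a mean of the 10 genes, combination 2 replicate 3 lay nearer to scrambled siRNA than the other arrays of its group. It was the highest array of its group for 8 of the 10 genes. Averaged over the 10 genes, it lay 0.0855 below the scrambled mean (a difference of −0.0855), against −0.23 and −0.26 on combination 2 replicates 1 and 2. The combination 1 arrays lay at −0.36, −0.32 and −0.44, and the scrambled arrays at 0.073, 0.013 and −0.086. Both siRNA targets were highest of the group in combination 2 replicate 3, though far below scrambled siRNA. YAP1 was at 6.97 there, against 6.86 and 6.73 on replicates 1 and 2. WWTR1 was at 6.99, against 6.95 and 6.98. BUB1 stayed farthest below the scrambled mean in that array, at −0.41, against −0.064 for TTK, 0.17 for MAD2L1 and −0.0046 for SGO2. BUB3, at −0.14, also lay below every scrambled array there. MAD1L1 moved the other way, at −0.12 against 0.11 and 0.068 on replicates 1 and 2, and also lay below every scrambled array.

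Without combination 2 replicate 3, a comparison added after the data were seen, the median difference of the 10 genes was −0.27 with combination 2 and −0.45 with combination 1, and 0.14 between the combinations. The counts were then 0 of 10 genes lower with combination 2, against 0.645% of all genes in that fit, 5 lower with combination 1, against 1.13%, and 0 between the combinations. The checkpoint genes other than BUB1 and MAD2L1 differed by −0.40 (TTK) to 0.091 (MAD1L1) with combination 2, with limma adjusted p from 0.102 to 0.750. Differences that moved by more than 1.5 times were, beside MAD2L1 in both comparisons, MAD1L1 to 0.091 and TRIP13 to −0.044 with combination 2, and SGO2 to 0.12, MAD1L1 to −0.055 and BUB3 to 0.00 between the combinations. BUB1 with combination 2 stood at an adjusted p of 0.0515 from limma in that fit, and TRIP13 between the combinations at 0.40 (limma adjusted p = 0.0605).

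**Figure D3:**
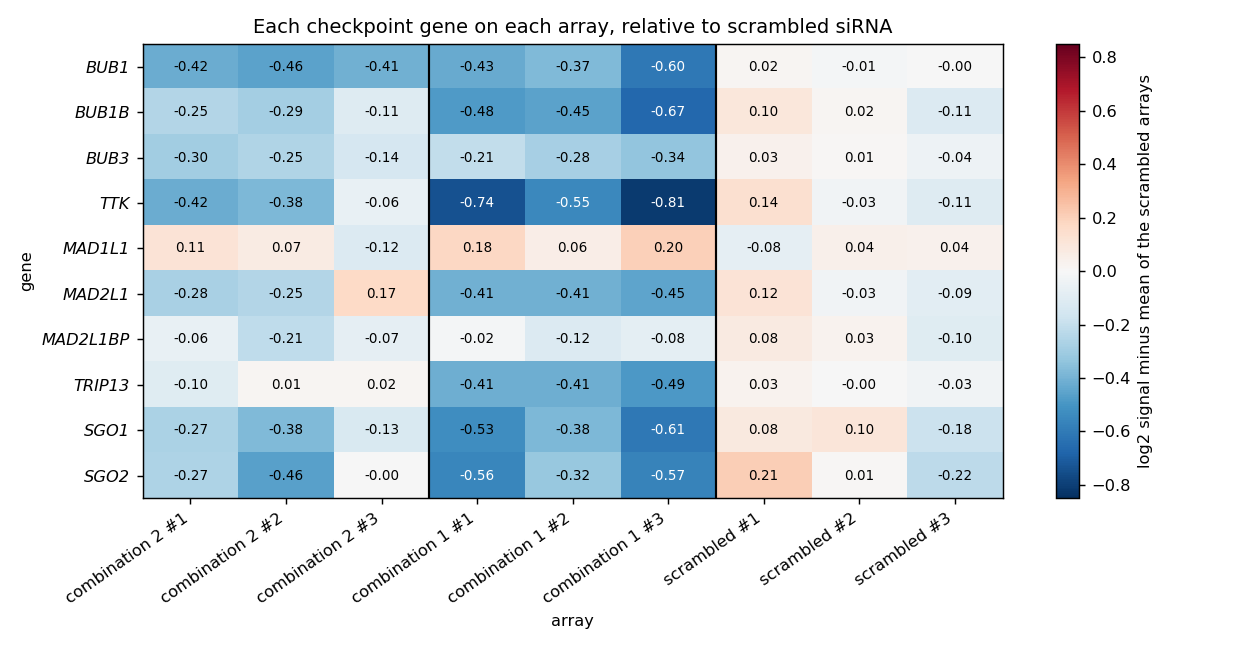
Log2 signal of each checkpoint gene (rows) on each array (columns) minus the mean of the 3 scrambled arrays, blue below and red above it, with # before the replicate number. The combination 1 arrays are clearly blue in 8 rows, and combination 2 replicate 3 is pale except for BUB1, at −0.41.

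The 8 genes other than MAD1L1 and MAD2L1BP varied together from array to array. They are the same 8 that were lower with combination 1 without overlap, so correlations over the 9 arrays follow in part from that choice. Over the 9 arrays, the 28 pairs among these 8 genes had correlations of 0.594 to 0.979, with a median of 0.872. After each group's mean was taken away, so that only differences between arrays of 1 group remained, all 28 stayed positive, from 0.267 to 0.912 with a median of 0.703. Of all 45 pairs among the 10 genes, 36 were positive over the 9 arrays and 35 after the group means were taken away. Pairs of other genes were not compared. MAD1L1 ran the other way, with correlations of −0.910 to −0.221 with the other 9 genes over the 9 arrays. The points share the arrays and their normalization, and the correlations are descriptions over 9 arrays. Within groups, scrambled replicate 1 was the highest and scrambled replicate 3 the lowest scrambled array for 8 of the 10 genes each, and combination 1 replicate 3 was the lowest of its group for 8.

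The 3 protein-coding genes most like each member over the 9 arrays are named as a description, with Pearson r. BUB1 was most like CENPN, a centromere gene (0.982), C4BPB, a complement regulator (0.979), and EFEMP1, a matrix protein (0.978). BUB1B was most like HMMR, a spindle-associated hyaluronan receptor (0.996), the chromokinesin KIF4A (0.995) and the formin DIAPH3 (0.995). TTK was most like the kinesin KIF20B (0.991), the DNA polymerase theta gene POLQ (0.991) and CIP2A, an inhibitor of protein phosphatase 2A (0.989). SGO1 was most like CLIP1, which binds growing microtubule ends (0.984), the spindle motor KIF11 (0.979) and the kinase TAOK3 (0.978). TRIP13 was most like the ubiquitin ligase genes RNF20 (0.992) and UBE4A (0.988) and the membrane protein gene TMEM184C (0.989).

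Partners were taken as genes of kinetochore subunits, chromosomal passengers and parts of the anaphase machinery that checkpoint proteins bind or act on. Of these 30 genes, 6 fell and 0 rose with combination 1, with a median difference of −0.36, and 22 were lower without overlap. Over all genes tested, 0.833% fell with combination 1 and 10.1% were lower without overlap. CENPE, the kinetochore motor that feeds the checkpoint, was at 6.96 ± 0.20 with combination 2, 6.55 ± 0.16 with combination 1 and 7.49 ± 0.16 with scrambled siRNA (SD, n = 3 each), and it fell with combination 1 by 0.94 in log2 signal (limma adjusted p = 0.0106). The chromosomal passenger gene CDCA8 fell by 0.53 (adjusted p = 0.0096), CCNB1, cyclin B1, by 0.49 (0.0120) and CDC20, the protein that the checkpoint inhibits, by 0.57 (0.0220). PLK1, polo-like kinase, fell by 0.50 (0.0482) and NUF2, an outer kinetochore subunit, by 0.69 (0.0491).

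With combination 2, 1 of the 30 partners fell, against 0.446% of all genes, and 0 rose, with a median of −0.14. That gene was SPDL1, Spindly, the adaptor that strips checkpoint proteins from attached kinetochores, which fell by 0.63 in log2 signal (limma adjusted p = 0.0492). None of the 30 passed the threshold between the combinations, where 14 were higher with combination 2 without overlap, against 8.59% of all genes. Without combination 2 replicate 3 the combination 1 count was 12 of 30 in place of 6, while the count over all genes was 419 in place of 310.

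Among 37 other G2 and M phase genes, 23 fell and 0 rose with combination 1, with a median of −0.51, and 35 were lower without overlap. Over all genes, 0.833% fell and 10.1% were lower without overlap in this comparison. KIF23, a motor of cytokinesis, fell by 0.74 in log2 signal (limma adjusted p = 0.00228), AURKA, the centrosome kinase, by 0.51 (0.00291), its activator TPX2 by 0.52 (0.00383), and TOP2A, a DNA topoisomerase, by 0.73 (0.00456). With combination 2, 3 of the 37 fell, against 0.446% of all genes, and the median was −0.27. The 3 were HJURP, the chaperone of centromeric histone, by 0.43 (0.0397), TPX2 by 0.34 (0.0450) and PRC1, which bundles the midzone of the spindle, by 0.37 (0.0476). Of the 37, 23 were lower with combination 2 without overlap, against 6.50% of all genes. Without combination 2 replicate 3, 2 of the 37 fell with combination 2 and 25 with combination 1, against 0.645% and 1.13% of all genes. Of 35 G1/S and S phase genes, 0 fell with combination 2 (0.446% of all genes) and 2 with combination 1 (0.833%). Those were CLSPN, claspin of the replication checkpoint, which fell by 0.36 (0.0318), and RRM1, a ribonucleotide reductase subunit, by 0.36 (0.0439), and the medians were −0.040 with combination 2 and −0.18 with combination 1. Without overlap, 8 of the 35 were lower with combination 2 (6.50% of all genes) and 27 with combination 1 (10.1%). All 35 differences were negative with combination 1. Without combination 2 replicate 3, 5 of these 35 fell with combination 1, against 1.13% of all genes. No gene of either list passed the threshold between the combinations on all 9 arrays, and 1 of the G1/S and S phase genes did without combination 2 replicate 3.

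**Figure D4:**
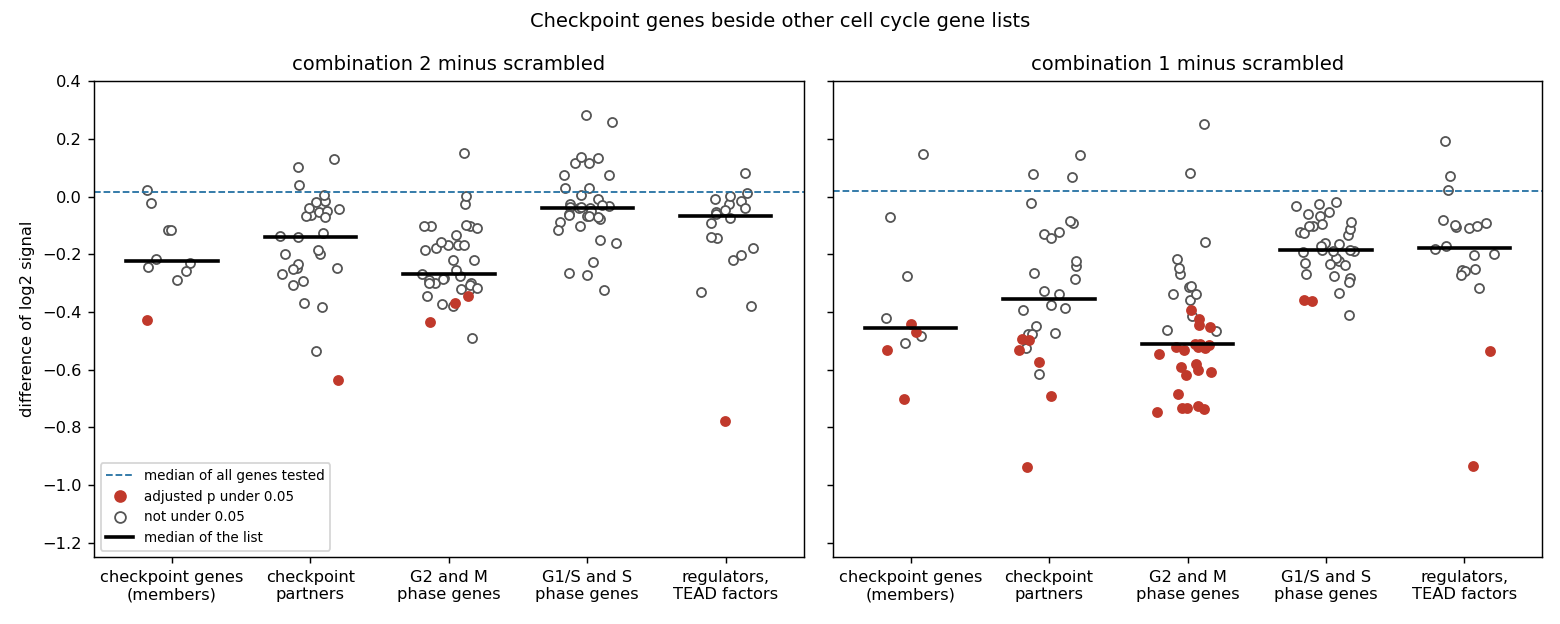
Difference of log2 signal (vertical axis) for the 10 checkpoint genes, 30 partners, 37 G2 and M phase genes, 35 G1/S and S phase genes and 20 regulators, as combination 2 minus scrambled (left) and combination 1 minus scrambled (right). Points are genes, filled where the adjusted p is under 0.05, bars are list medians and the dashed line is the median of all genes tested. The checkpoint genes have medians of −0.22 with combination 2 and −0.45 with combination 1, near those of the G2 and M phase genes.

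Among 20 regulators of mitotic genes and TEAD factors, 1 fell with combination 2 (0.446% of all genes) and 2 with combination 1 (0.833%). MYBL1, a relative of B-MYB, fell with both, by 0.78 with combination 2 (limma adjusted p = 0.00925) and by 0.93 with combination 1 (0.00194). RBL2, the pocket protein p130 that holds MuvB in its repressive form, differed by −0.040 with combination 2 (limma adjusted p = 0.859) and fell by 0.54 with combination 1 (0.0109). RBL2 was higher with combination 2 than with combination 1 by 0.50 (limma adjusted p = 0.0389), as TRIP13 was. FOXM1 was at 9.76 ± 0.10 with combination 2, 9.59 ± 0.066 with combination 1 and 9.90 ± 0.034 with scrambled siRNA (SD, n = 3 each), and its difference of −0.15 with combination 2 (limma adjusted p = 0.401) and −0.32 with combination 1 (0.0661) did not pass the threshold. The 4 TEAD genes did not pass it in any comparison. Without combination 2 replicate 3, 2 of the 20 fell with combination 2 (0.645% of all genes) and 3 with combination 1 (1.13%). Between the combinations 0 of the 20 then passed, so the RBL2 call there was lost.

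Genes of the antiviral interferon response were measured beside the checkpoint genes. Of 10 interferon response genes, 1 rose with combination 2, against 0.304% of all genes, and 10 rose with combination 1, against 0.680%. Their median difference was 0.50 with combination 2 and 1.70 with combination 1. Between the combinations 9 of the 10 were lower with combination 2, against 0.237% of all genes, with a median of −1.22. IFIT1, which binds viral RNA, was at 6.74 with combination 2, 8.53 with combination 1 and 6.25 with scrambled siRNA as group means. The part of the interferon response in the lower checkpoint genes was not tested.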

How the data were processed

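Clariom D arrays (9) measured RNA of HUCCT-1 cells. The authors summarised each probe set by RMA, which corrects background and normalizes, with the custom CDF annotation of version 22, and the deposited unit is the log2 signal. RMA draws the arrays to 1 distribution, so values are relative, and small differences of dim genes are compressed. Scrambled replicate 1 holds 29641 distinct values and the other arrays 7528 each. Of 39334 probe sets, the 37201 with 1 gene symbol were tested. No column was left out.

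Group means of all 9 arrays were fitted with limma 3.58.1 in R 4.3.3 (moderated variances, prior degrees of freedom 2.56), with Benjamini-Hochberg adjustment over 37201 genes and a threshold of 0.05. Intervals are 95% and unadjusted. Groups did not overlap where every array of one lay below every array of the other. On simulated data the fit recovered 52.8% of changes of 0.5 and 83.0% of changes of 1 in log2 signal. Of its calls there, 4.73% were false. A true difference of 0.5, and less often one of 1, can therefore miss the threshold. The simulated noise was drawn independently for each array, so no array deviated across genes.

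The members and gene lists were chosen with earlier results of these data known. The text names all members, the siRNA targets, up to 6 genes per list with the smallest p past the threshold in a comparison, and, for members, the 3 protein-coding genes with the highest Pearson r. FOXM1 and the TEAD genes were singled out after their values were seen. Motifs were searched in RefSeq start regions. Alternatives were other normalizations, variance models, array weights, filters, a replicate block and leaving out each array.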

Additional observations from a re-analysis of the deposited data

Results flagged for a closer look

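TRIP13 is given here because its 2 effects under the same contrast differed by a direct test. Its difference from scrambled siRNA was −0.023 with combination 2 and −0.44 with combination 1, and combination 2 minus combination 1 was 0.42 (SE 0.056, limma adjusted p = 0.0237). The 3 combination 2 arrays lay above the 3 combination 1 arrays. The same direction was found in all 9 fits without 1 array, and the call was kept in 1 of them.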

How the results depend on the processing

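Counts of checkpoint genes called lower with combination 1 (4) were 2 with an ordinary linear model and 7 with array weights or with protein-coding genes only, and 1 to 5 without 1 array. The lowest count came without scrambled replicate 1 or 2, and the count was 2 without combination 1 replicate 1 or 3. The count called lower with combination 2 (1) was 0 with only the 6 arrays compared and 0 to 1 without 1 array. The count called higher with combination 2 than combination 1 (1) was 0 with only the 6 arrays compared and 0 to 1 without 1 array. Shares of all genes called in these fits are not given here.

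Arrays of the same number did not deviate together (correlations of −0.18 to 0.051), so the numbers were not taken as pairs. With a replicate block the counts of checkpoint genes were 0 lower with combination 2, 0 lower with combination 1 and 0 between the combinations, and those of all genes were 48, 206 and 42 in place of 279, 563 and 124.

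Directions turned only in differences near 0 that passed no threshold. MAD1L1 with combination 2 was −0.017 without scrambled replicate 1, −0.024 without combination 2 replicate 1 and −0.0010 without combination 2 replicate 2, within a range of −0.024 to 0.091. TRIP13 with combination 2 was 0.017 without combination 2 replicate 1 (range −0.044 to 0.017). Between the combinations, BUB1 was −0.029 without combination 1 replicate 3 (range −0.029 to 0.087) and MAD2L1BP 0.0044 without combination 2 replicate 2 (range −0.073 to 0.0044). The cause was not tested. The number of arrays limits the precision, and changes of RNA share cannot be told from changes of cell cycle phase.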

Other observations

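The remaining members had the following nearest protein-coding genes over the 9 arrays. MAD2L1 was most like EIF1AY, a translation initiation factor gene (r = 0.986), DCAF17 (0.985) and the centromere gene CENPK (0.985). MAD2L1BP was most like THAP10 (0.969), KANTR (0.951) and the olfactory receptor gene OR5H15 (0.948). MAD1L1 was most like RAMP1, a co-receptor of calcitonin gene-related peptide (r = 0.985), TAX1BP3 (0.980) and GCHFR (0.972). BUB3 was most like the actin-associated LIMCH1 (0.975), the mitotic kinesin KIF15 (0.974) and CCNA2, cyclin A2 (0.968). SGO2 was most like the sorting nexin SNX24 (0.988), the ribosomal protein gene RPL17 (0.987) and ZCCHC4 (0.980). These are descriptions over 9 arrays that share a normalization, with 18201 genes compared for each member.

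Among the epithelial markers, CDH1, which encodes E-cadherin, was higher with combination 1 than with scrambled siRNA by 0.39 (limma adjusted p = 0.0357), and the other 6 did not pass the threshold.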
